A study of Homo sapiens with 3 samples.

Results

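The genes of the matrix proteases and their inhibitors were chosen by symbol, as every gene listed as a matrix metalloproteinase (MMP), a tissue inhibitor of metalloproteinases (TIMP), an ADAM (a disintegrin and metalloproteinase), an ADAMTS (an ADAM with thrombospondin motifs) or an ADAMTS-like protein (ADAMTSL) with its number. Of the 26108 genes listed, 56 were members, namely 19 MMP, 3 TIMP, 15 ADAM, 14 ADAMTS and 5 ADAMTSL genes. TIMP4 and MMP13 were not analysed here. Levels were compared in LX-2, an established cell line of human hepatic stellate cells, the cells that become collagen-producing myofibroblasts in the injured liver. The 3 mRNA libraries were 1 of cells given vehicle without FGF19, 1 of cells given recombinant human FGF19 (rhFGF19) at 50 ng/mL and 1 of cells given 100 ng/mL, with no other agent named for any of them. The comparisons ask what rhFGF19 changes in these cells and whether the doses differ. Exposure to rhFGF19 lasted 24 h by the design text and by the study's figure legend for this sequencing. The sample descriptions give 72 h or 73 h instead, and they also swap 50 and 100 ng/mL between the treated libraries. The doses used here are those of the titles and agents, and the time is uncertain. With 1 library per condition no difference had a replicate check, no test was possible, and both doses were set against the same vehicle library. Levels are in FPKM (fragments divided by transcript length in kilobases and by the mapped fragments of the library), which keeps no read counts, so the depth behind a value is unknown. Vehicle stood apart in its genes at 0, which numbered 5814, against 3966 with 50 ng/mL and 3959 with 100 ng/mL. The FPKM of all genes summed to 302243 with vehicle, 276690 with 50 ng/mL and 281606 with 100 ng/mL. The cause of these differences was not tested.

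MMPs and ADAMTS proteases are secreted or membrane-bound enzymes that cut collagens, fibronectin, proteoglycans and other parts of the extracellular matrix, and most are made as inactive precursors. ADAMs are mainly membrane-anchored and release the outer parts of growth factors, cytokine receptors and adhesion molecules, a process called shedding. TIMPs bind the active site of these enzymes, and in the injured liver stellate cells are a known source of both the proteases and TIMP1, whose balance sets how fast scar matrix is removed.

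The active site of these enzymes is held by a zinc ion bound by 3 histidines. The coding stretch of this zinc-binding motif was read from the GENCODE v29 transcripts (GRCh38), taking for each gene the listed transcript with the longest coding sequence. It was found in 17 MMP, 10 ADAM and 14 ADAMTS genes, and it was absent from ADAM11, ADAM22, ADAM23 and ADAM32, from the 3 TIMP genes and from the 5 ADAMTSL genes. MMP20, MMP23A and ADAM20 had no complete coding transcript among those listed. The stretch is shown for 9 members that the results turn on, since the same motif is spelled with more or fewer G and C bases in each, and transcript GC content returns in every comparison. The codons of the 3 histidines are in capitals.
MMP1: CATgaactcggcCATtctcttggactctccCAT
MMP14: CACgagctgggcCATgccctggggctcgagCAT
MMP17: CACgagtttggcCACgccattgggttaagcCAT
ADAM15: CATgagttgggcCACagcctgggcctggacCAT
ADAM19: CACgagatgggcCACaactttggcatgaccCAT
ADAM10: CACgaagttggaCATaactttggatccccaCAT
ADAM17: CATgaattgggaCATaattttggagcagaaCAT
ADAMTS1: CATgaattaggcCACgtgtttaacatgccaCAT
ADAMTS16: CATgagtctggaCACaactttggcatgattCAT
The stretch of MMP1 lay in exon 5 of its transcript, at chr11:102795549-102795581 on the minus strand, that of MMP14 in exon 5 at chr14:22843283-22843315 on the plus strand, and that of MMP17 in exon 5 at chr12:131841659-131841691 on the plus strand. Those of ADAM15 (chr1:155056995-155057027, plus strand), ADAM19 (chr5:157505734-157505766, minus strand) and ADAM17 (chr2:9510078-9510110, minus strand) lay in exon 11. The stretches of ADAM10 (chr15:58627881-58633225, minus strand, exons 9 and 10), ADAMTS1 (chr21:26841143-26841867, minus strand, exons 3 and 4) and ADAMTS16 (chr5:5191774-5200147, plus strand, exons 8 and 9) were joined across an intron. Of the 33 bases, 12 were G or C in ADAM17 and 15 in ADAM10, against 18 in ADAM19, 21 in ADAM15 and 23 in MMP14. The stretch does not follow transcript GC content in each gene, since MMP17 had 18 and MMP1 17 although their transcripts have 67.0% and 43.4% GC, and ADAMTS1 and ADAMTS16 had 14 each. Over the whole coding sequence, G or C stood at the third codon position in 33.3% of the codons of ADAM10, 45.8% in ADAM17, 66.3% in ADAM19 and 67.3% in ADAM15.

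The libraries expressed part of the stellate cell and fibroblast markers. Of 14 such markers 13 were listed and 7 reached 1 FPKM in vehicle, with a summed level of 784 FPKM with vehicle, 920 with 50 ng/mL and 918 with 100 ng/mL, and VIM (vimentin) as the most abundant. These markers went both ways, since VIM had 439, 654 and 649 FPKM and COL1A1 78.4, 108 and 104, whereas TAGLN (transgelin) had 223, 118 and 126. LRAT, the retinol-storing enzyme of quiescent stellate cells, was at 0 in the 3 libraries, and DES, LUM, PDGFRA, COL1A2 and PDPN stayed under 1 FPKM. Epithelial markers summed to 504 FPKM with vehicle, 309 with 50 ng/mL and 303 with 100 ng/mL, of which KRT18 was the most abundant, while CDH1, the cadherin of epithelial cells, had at most 0.01 FPKM and EPCAM was not analysed here. Blood markers summed to 52.6, 47.2 and 42.7 FPKM, most of it CD68 (a lysosomal protein of macrophages and other cells), and CD3E and PTPRC were not analysed here. Hepatocyte markers summed to 11.3, 12.6 and 11.5 FPKM, with SERPINA1 the most abundant. The 5 endothelial markers summed to 0.50, 0.48 and 0.49 FPKM, with VWF the most abundant. The part of these differences in the results was not tested, and in such bulk RNA fewer cells of a type and less RNA per cell cannot be told apart.

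LX-2 cells carried a few proteases and inhibitors at high level and many near 0. Of the 56 members, 26 had a mean of at least 1 FPKM over the 3 libraries, and 31 passed a filter of a mean of at least 0.5 FPKM, namely 10 MMP, 3 TIMP, 8 ADAM, 7 ADAMTS and 3 ADAMTSL genes. The 25 others had at most 0.63 FPKM in any library, and 1 of them, ADAM28, was listed at 0 in the 3 libraries. TIMP1 stood 161st and MMP1 214th by mean level among the 26108 genes. Within the subfamilies, TIMP1 made up 80.8% of the summed TIMP level in vehicle, ADAM15 79.8% of the ADAM level, ADAMTS12 55.7% of the ADAMTS level and MMP1 47.1% of the MMP level.

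**Figure D1:**
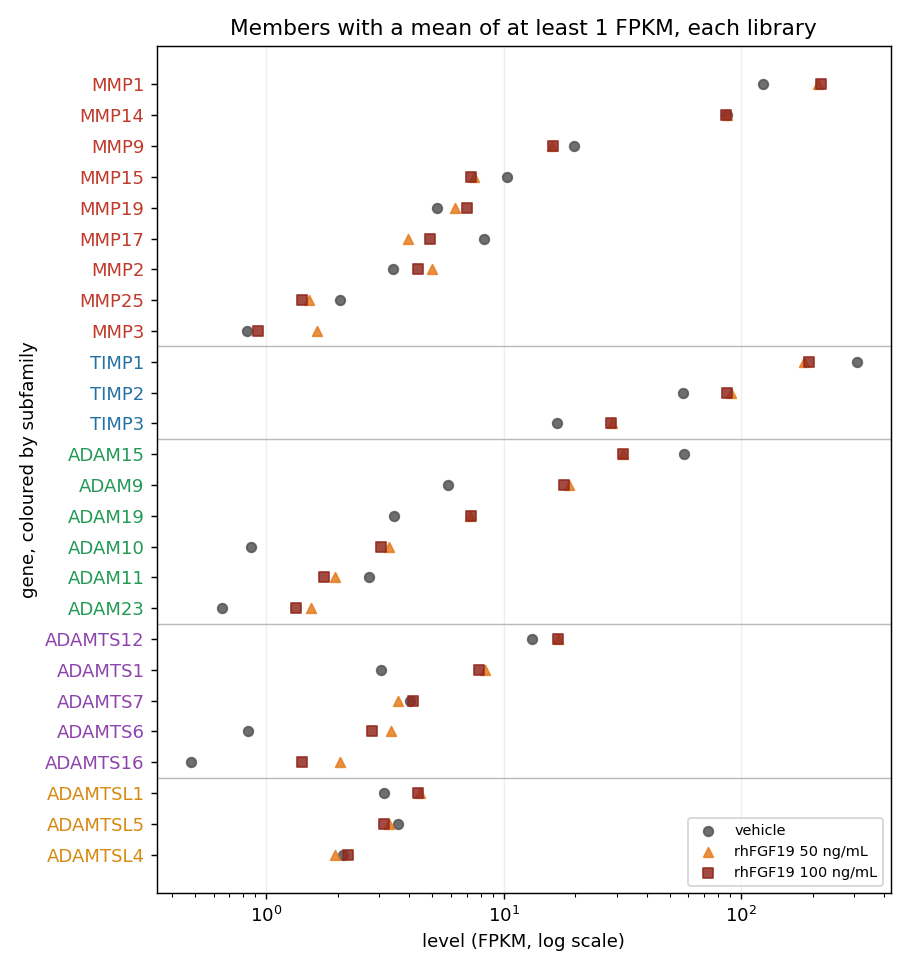
Level of each member with a mean of at least 1 FPKM in the vehicle library (circles), at 50 ng/mL (triangles) and at 100 ng/mL (squares), in FPKM on a log axis, with the genes grouped and coloured by subfamily. The rhFGF19 libraries lie close to each other, TIMP1 and ADAM15 lie left of vehicle and MMP1, ADAM9 and ADAM10 lie right of it.

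The genes higher by more than 2-fold with rhFGF19 were ADAMs and ADAMTSs, while no MMP and no TIMP passed that limit upward, except MMP3 at 50 ng/mL when the libraries were rescaled to the same sum. Fold changes are differences of log2(FPKM + 0.1) between single libraries, which understates the change of low genes, and the limit of 2-fold is an absolute log2 fold change above 1. At 50 ng/mL 8 of the 31 members were higher than in vehicle by more than 2-fold, against 39.4% of the 12447 genes tested, and 1 was lower, against 1.78%. At 100 ng/mL 7 were higher, against 38.5%, and 0 were lower, against 1.58%. The share of higher members was thus under that of all genes, whose median log2 fold change was 0.62 for 50 ng/mL and 0.61 for 100 ng/mL. Relative to these medians, 19 of the 31 members lay lower at both doses. As many genes lie under a median as above it by definition, and the share of all genes under both medians was not computed. This count is therefore not a result about the members.

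The fold changes of the members followed transcript GC content, as those of all genes did. Each gene was given the median GC content of its listed transcripts. Between 12397 genes tested with such a value, the log2 fold change averaged over both doses fell with GC content with a Spearman correlation of -0.78, and between the 31 members it was -0.84; genes are not independent replicates, and all points share the vehicle library. Below 40% GC, 90.1% of 1112 genes were higher by more than 2-fold at 50 ng/mL, and the median log2 fold change was 1.52. From 60% GC upward the share was 1.97% of 2235 genes and the median -0.50. ADAM9 was the member below 40%, and 11 members lay from 60% upward, among them ADAM15, MMP9, MMP15 and MMP17, with a median of -0.30 at 50 ng/mL. Vehicle is the only library without rhFGF19, so a difference in base composition between libraries and a response to rhFGF19 cannot be told apart. For this reason most fold changes below stand beside their difference from the trend on GC content, which is the value relative to genes of similar GC content. After this trend was removed 2 members were higher by more than 2-fold at 50 ng/mL, against 3.85% of the 12397 genes, and 0 were lower, against 5.07%. At 100 ng/mL 2 were higher, against 3.39%, and 1 was lower, against 4.51%. ADAM19 and ADAMTS16 were the higher ones at both doses and MMP3 the lower one at 100 ng/mL.

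Among the MMPs the collagenase MMP1 had the highest level. MMP1 (ENSG00000196611, chromosome 11 from 102789919 to 102798160, minus strand), which cuts fibrillar collagen, had 124 FPKM with vehicle, 210.3 with 50 ng/mL and 218 with 100 ng/mL. Both rhFGF19 libraries lay above vehicle, with log2 fold changes of 0.76 and 0.82, yet the transcripts of MMP1 have 43.4% GC and genes of similar GC content stood at 1.36 and 1.34, which left MMP1 at -0.60 and -0.53 relative to them. Its neighbours in the cluster of chromosome 11 were low. MMP3 (stromelysin-1) had 0.83 FPKM with vehicle, 1.64 with 50 ng/mL and 0.92 with 100 ng/mL, MMP10 (stromelysin-2) had 0.02, 0.09 and 0.09, and MMP7 (matrilysin) had 0, 0 and 0.06. MMP3 was the member whose doses differed most, with log2 fold changes of 0.90 and 0.13, or -0.37 and -1.12 relative to genes of its 44.8% GC.

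The membrane-type MMPs were led by MMP14 (ENSG00000157227, chromosome 14 from 22836560 to 22849027, plus strand), a cell-surface collagenase that also activates the precursor of MMP2. MMP14 had 86.9 FPKM with vehicle, 87.2 with 50 ng/mL and 86.8 with 100 ng/mL, so that its level was nearly the same in the 3 libraries. Relative to the median of all genes this was -0.61 and -0.62, whereas relative to genes of its 59.3% GC it was 0.28 and 0.26. MMP2 (gelatinase A) had 3.42, 4.97 and 4.36 FPKM, with log2 fold changes of 0.53 and 0.34, or 0.48 and 0.29 relative to genes of similar GC content. MMP15, another membrane-type enzyme, had 10.4 FPKM with vehicle, 7.48 with 50 ng/mL and 7.26 with 100 ng/mL, and lay at -0.07 and -0.13 relative to genes of similar GC content.

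MMP17 (ENSG00000198598, chromosome 12 from 131828393 to 131851783, plus strand), a membrane-type enzyme with a lipid anchor, was the member lower by more than 2-fold at 50 ng/mL, though ADAM15 joined it with the median ratio to vehicle set to 0 and 7 others with the length trend removed. It had 8.25 FPKM with vehicle, 3.94 with 50 ng/mL and 4.88 with 100 ng/mL, giving log2 fold changes of -1.05 and -0.75. Its transcripts had 67.0% GC, the highest of the MMPs that passed the filter, and relative to genes of similar GC content it lay at -0.49 and -0.19. With a pseudocount of 1 in place of 0.1 and with the libraries rescaled to the same sum, MMP17 was no longer past 2-fold. MMP25, the other MMP with a lipid anchor, had 2.05, 1.51 and 1.42 FPKM and transcripts of 64.9% GC, and it lay at 0.09 and 0.00 relative to genes of similar GC content.

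Of the remaining MMPs, MMP9 (gelatinase B, which cuts denatured and basement membrane collagen) had 19.7 FPKM with vehicle, 16.0 with 50 ng/mL and 16.1 with 100 ng/mL. The changes of -0.30 and -0.29 on the log2 scale became 0.13 and 0.13 relative to genes of its 62.4% GC. MMP19 had 5.26, 6.22 and 6.98 FPKM, or 0.02 and 0.19 relative to genes of similar GC content. Over the 10 MMPs that passed the filter, the median log2 fold change averaged over the doses was -0.15, against 0.62 for all genes, but it was 0.31 without the filter and 0.04 with the GC trend removed, so no direction is given for the MMPs. MMP11 (stromelysin-3), with 0.63, 0.28 and 0.23 FPKM, did not pass it. In 8 of the 10, the fold changes lay under the medians of all genes at both doses. The share of all genes under both was not computed. The median GC content of the 10 was 59.9%, and all genes from 55% to 60% GC had medians of -0.21 at both doses. So this count cannot be told apart from the trend on GC content.

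TIMP1 and the other TIMPs went apart. TIMP1 (ENSG00000102265, chromosome X from 47582408 to 47586789, plus strand), the most abundant inhibitor, had 308 FPKM with vehicle, 184 with 50 ng/mL and 193 with 100 ng/mL. Its log2 fold changes were -0.75 and -0.68, within 2-fold of vehicle, and -1.37 and -1.29 relative to the medians of all genes. With the length trend removed TIMP1 was lower by more than 2-fold at both doses. That removal also moves the median of all genes from 0.62 to 0.04, so this value too is relative to other genes. Genes of its 58.1% GC stood at -0.20 and -0.19, so that TIMP1 lay at -0.55 and -0.49 relative to them. TIMP2 (ENSG00000035862, chromosome 17 from 78852977 to 78922401, minus strand), which inhibits MMP2 and also takes part in its activation by MMP14, had 56.8 FPKM with vehicle, 90.7 with 50 ng/mL and 87.4 with 100 ng/mL. TIMP3, which is bound to the matrix and inhibits ADAM17 as well as MMPs, had 16.7, 28.6 and 28.4 FPKM. The log2 fold changes of TIMP2 were 0.67 and 0.62, close to the medians of all genes, and 0.41 and 0.36 relative to genes of its 53.7% GC, whereas those of TIMP3 were 0.77 and 0.76, and -0.15 and -0.14 relative to genes of its 48.7% GC. The median of the 3 TIMPs was 0.65, and it changed sign to -0.15 with the GC trend removed and to -0.21 with the trend on transcript length removed. TIMP1 made up 80.8% of the summed TIMP level with vehicle, 60.6% with 50 ng/mL and 62.5% with 100 ng/mL, whereas TIMP2 made up 14.9%, 29.9% and 28.3%.

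The ratio of a protease to its inhibitor within a library does not depend on the scaling of that library. The FPKM of MMP1 was 0.40 times that of TIMP1 in vehicle, 1.15 times at 50 ng/mL and 1.13 times at 100 ng/mL, and so went from under to above TIMP1. This change of the ratio was 1.51 and 1.49 on the log2 scale, while the trend on GC content alone differed by 1.56 and 1.53 between genes with the GC contents of MMP1 and TIMP1. The ratio of MMP14 to TIMP2 went the other way, from 1.53 with vehicle to 0.96 with 50 ng/mL and 0.99 with 100 ng/mL, a log2 change of -0.67 and -0.62 against -0.55 and -0.53 for the trend. Other ratios departed from the trend. That of MMP9 to TIMP1 was 0.064, 0.087 and 0.083, a log2 change of 0.45 and 0.39 against -0.23 and -0.23 for the trend, and that of TIMP2 to TIMP1 was 0.18, 0.49 and 0.45, a change of 1.42 and 1.3 against 0.47 and 0.45. Summed over the members, the MMP level was 263 FPKM with vehicle, 341 with 50 ng/mL and 349 with 100 ng/mL, and the TIMP level was 382, 303 and 309 FPKM. The ratio of these sums was 0.69, 1.13 and 1.13, which mostly follows MMP1 and TIMP1, the most abundant of each.

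**Figure D2:**
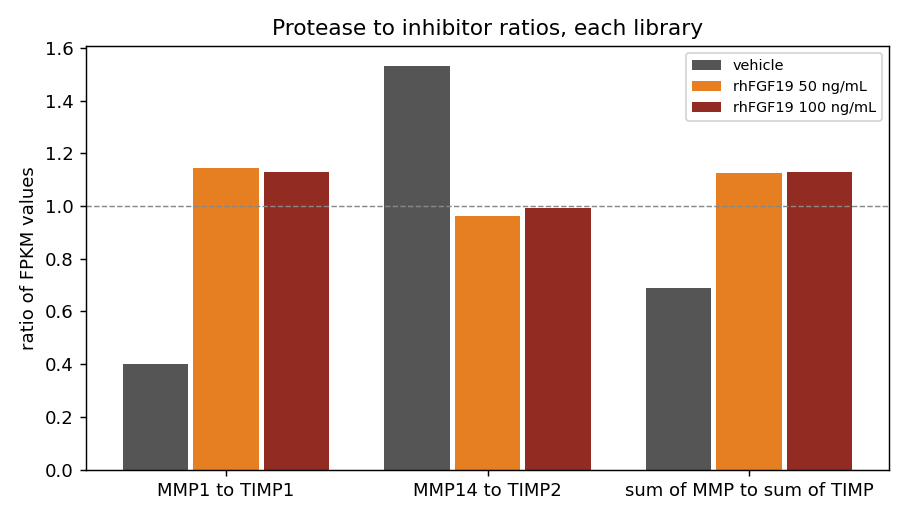
Ratio of FPKM values within each library for MMP1 to TIMP1, MMP14 to TIMP2 and the summed MMPs to the summed TIMPs, as bars for vehicle, 50 ng/mL and 100 ng/mL, with a dashed line at 1. The ratio of MMP1 to TIMP1 goes from 0.40 to 1.15 and 1.13, and that of MMP14 to TIMP2 from 1.53 to 0.96 and 0.99.

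Among the ADAMs the main sheddases were higher by more than 2-fold and ADAM15 was not. ADAM10 (ENSG00000137845, chromosome 15 from 58588809 to 58749774, minus strand), which sheds Notch, cadherins and other substrates, had 0.86 FPKM with vehicle, 3.28 with 50 ng/mL and 3.04 with 100 ng/mL. ADAM17 (ENSG00000151694, chromosome 2 from 9488486 to 9556732, minus strand), the sheddase of tumor necrosis factor and of ligands of the EGF receptor, had 0.34, 1.15 and 1.20 FPKM. ADAM9, a sheddase of several growth factors, had 5.81 FPKM with vehicle, 18.8 with 50 ng/mL and 18.0 with 100 ng/mL. In these 3 genes both rhFGF19 libraries lay above vehicle, with log2 fold changes of 1.82 and 1.71 for ADAM10, 1.51 and 1.56 for ADAM17 and 1.67 and 1.62 for ADAM9. Their transcripts had 40.6%, 41.7% and 38.9% GC, and relative to genes of similar GC content ADAM10 lay at 0.35 and 0.26, ADAM17 at 0.08 and 0.15 and ADAM9 at 0.18 and 0.14. ADAM17 was within 2-fold with a pseudocount of 1 and with the length trend removed, and ADAM9 was so at 100 ng/mL with the latter. The ratio of ADAM10 to ADAM17 was 2.53 with vehicle, 2.85 with 50 ng/mL and 2.53 with 100 ng/mL.

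ADAM19 (ENSG00000135074, chromosome 5 from 157395534 to 157575775, minus strand), an ADAM that sheds neuregulin, differed from these in base composition. It had 3.45 FPKM with vehicle, 7.25 with 50 ng/mL and 7.31 with 100 ng/mL, giving log2 fold changes of 1.05 and 1.06. Genes of its 56.5% GC stood at -0.06 and -0.05, so that ADAM19 lay at 1.11 and 1.11 relative to them. ADAM19 was within 2-fold with a pseudocount of 1, with the median ratio to vehicle set to 0 and with the length trend removed. ADAM23, which has no zinc-binding motif and binds integrins, had 0.65, 1.55 and 1.34 FPKM. Its log2 fold changes of 1.14 and 0.94 passed 2-fold at 50 ng/mL and not at 100 ng/mL, a difference between the doses of -0.20 that was not tested, and lay at 0.12 and -0.06 relative to genes of similar GC content. ADAM23 was within 2-fold at both doses with a pseudocount of 1, with the median ratio to vehicle set to 0 and with the length trend removed, and past it at both with the libraries rescaled to the same sum.

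ADAM15 (ENSG00000143537, chromosome 1 from 155050566 to 155062775, plus strand), an ADAM that binds integrins, was the most abundant ADAM. It had 57.5 FPKM with vehicle, 31.9 with 50 ng/mL and 31.8 with 100 ng/mL, and made up 79.8%, 47.7% and 48.4% of the summed ADAM level. Its log2 fold changes of -0.85 and -0.86 stayed within 2-fold, but ADAM15 was lower by more than 2-fold at both doses with the median ratio to vehicle set to 0 and with the length trend removed. Relative to genes of its 62.5% GC it lay at -0.41 and -0.43. ADAM11, which has no zinc-binding motif, had 2.71 FPKM with vehicle, 1.94 with 50 ng/mL and 1.75 with 100 ng/mL, and lay at -0.03 and -0.19 relative to genes of similar GC content. The median of the 8 ADAMs that passed the filter was 1.05, against 0.62 for all genes but without the filter it was 0.32 against 0.34, and with the GC trend removed it was 0.14.

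The ADAMTS genes were led by ADAMTS12, and among them ADAMTS16 differed most from genes of similar GC content. ADAMTS12, which cuts cartilage oligomeric matrix protein, had 13.1 FPKM with vehicle, 17.0 with 50 ng/mL and 17.0 with 100 ng/mL. The changes of 0.37 and 0.37 on the log2 scale became -0.58 and -0.57 relative to genes of its 48.4% GC. ADAMTS1 (ENSG00000154734, chromosome 21 from 26835755 to 26845409, minus strand), which cuts aggrecan and versican, had 3.05, 8.34 and 7.88 FPKM. It was higher by more than 2-fold at both doses, with log2 fold changes of 1.42 and 1.34, or 0.37 and 0.30 relative to genes of its 47.4% GC, but within 2-fold at both with the length trend removed. ADAMTS6 had 0.84 FPKM with vehicle, 3.35 with 50 ng/mL and 2.80 with 100 ng/mL, giving log2 fold changes of 1.88 and 1.63 at 42.8% GC, or 0.49 and 0.26 relative to genes of similar GC content; with the length trend removed it was within 2-fold at 100 ng/mL.

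ADAMTS16 (ENSG00000145536, chromosome 5 from 5140330 to 5320304, plus strand) had 0.48 FPKM with vehicle, 2.05 with 50 ng/mL and 1.41 with 100 ng/mL. Its log2 fold changes were 1.89 and 1.38, the first being the largest among the members, and genes of its 53.5% GC stood at 0.30 and 0.29. Relative to them ADAMTS16 lay at 1.60 and 1.09. The level is low in each library and its depth unknown, and at 100 ng/mL the gene was within 2-fold with a pseudocount of 1 and with the length trend removed. ADAMTS7 had 4.02, 3.60 and 4.15 FPKM, with log2 fold changes of -0.16 and 0.04, or 0.37 and 0.56 relative to genes of its 65.7% GC. The span of ADAMTS7 overlaps MORF4L1 on the other strand, which had 10.4, 26.1 and 26.4 FPKM, and reads of the overlap cannot be told apart without strand. The median of the 7 ADAMTS genes that passed the filter was 0.37, under the 0.62 of all genes, but with a mean of at least 1 FPKM it was 1.38, above the 0.52 of all genes, so its place against all genes is not settled. It was 0.37 with the GC trend removed and 0.03 with that on length removed.

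The ADAMTSL proteins resemble ADAMTS but carry no protease domain and sit in the matrix, where several bind fibrillin. ADAMTSL1 had 3.14 FPKM with vehicle, 4.45 with 50 ng/mL and 4.37 with 100 ng/mL, close to genes of its 51.7% GC at -0.05 and -0.06. ADAMTSL4 had 2.11, 1.94 and 2.22 FPKM, or 0.31 and 0.48 relative to genes of similar GC content. ADAMTSL5 had 3.60, 3.28 and 3.12 FPKM, or 0.44 and 0.37 relative to genes of its 67.7% GC. No ADAMTSL gene was past 2-fold, and the median of the 3 was -0.02, which became 0.09 with the libraries rescaled to the same sum, 0.39 with the GC trend removed and -0.53 with the length trend removed.

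The doses gave nearly the same levels. Between 100 and 50 ng/mL 0 of the 31 members were apart by more than 2-fold, against 1.73% of the 12447 genes tested. The log2 difference between the doses was lowest for MMP3 at -0.77, was -0.51 for ADAMTS16, and was highest for MMP17 at 0.30, with a median of -0.04 over the members. MMP3 and ADAMTS16, where its size was largest, have low levels of at most 2.05 FPKM.

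Windows of 250 bases upstream of a RefSeq transcript start (GRCh38.p14) were available for 35 of the 56 members, and not for MMP1, MMP2, MMP3, MMP9, MMP17, TIMP2, ADAMTS1 and ADAMTS16 among others. A RefSeq start can lie inside the gene span listed in the table, which is so for TIMP1, ADAM10 and ADAM15, so that these windows run into those spans and that of ADAM15 lies wholly inside. Their median was 73.6% GC, against 58.0% over all 35116 windows, although those of MMP7 (33.6%), MMP10 (34.4%) and ADAM20 (36.4%) were poor in GC. They are shown for TIMP1, the most abundant member, and for ADAM10 and ADAM15, whose transcripts have 40.6% and 62.5% GC and whose levels went apart with rhFGF19. The letters GGGCGG, a sequence that Sp factors bind, were searched on both strands and are in capitals.
TIMP1: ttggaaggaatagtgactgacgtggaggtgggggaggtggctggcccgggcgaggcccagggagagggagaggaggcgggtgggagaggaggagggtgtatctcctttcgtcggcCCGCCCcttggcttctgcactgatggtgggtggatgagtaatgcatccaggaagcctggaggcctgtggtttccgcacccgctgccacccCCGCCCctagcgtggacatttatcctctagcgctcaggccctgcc
ADAM10: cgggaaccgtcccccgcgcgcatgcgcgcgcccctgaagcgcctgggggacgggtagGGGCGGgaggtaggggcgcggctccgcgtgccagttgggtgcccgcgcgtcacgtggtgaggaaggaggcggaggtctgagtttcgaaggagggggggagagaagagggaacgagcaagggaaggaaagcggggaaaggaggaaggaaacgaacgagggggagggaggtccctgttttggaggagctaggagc
ADAM15: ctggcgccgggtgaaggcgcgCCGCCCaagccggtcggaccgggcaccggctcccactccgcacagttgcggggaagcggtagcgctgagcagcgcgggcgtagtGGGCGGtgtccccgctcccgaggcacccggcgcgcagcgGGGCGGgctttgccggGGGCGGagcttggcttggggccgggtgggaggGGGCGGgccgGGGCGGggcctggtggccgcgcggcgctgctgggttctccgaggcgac
They lie at chrX:47582186-47582435 on the plus strand for TIMP1, at chr15:58749708-58749957 on the minus strand for ADAM10 and at chr1:155051066-155051315 on the plus strand for ADAM15. The GC content was 64.8% for TIMP1, 68.4% for ADAM10 and 79.6% for ADAM15. GGGCGG occurred 2 times for TIMP1, 1 time for ADAM10 and 6 times for ADAM15. Over the members 26 of 35 windows held it, against 42.6% of all windows, among them ADAM17, ADAM23, MMP14, MMP15 and TIMP3. GGGCGG holds only G and C, and the member windows had a median of 73.6% GC against 58.0%. Their share thus cannot be told apart from their base composition. The letters TGAGTCA, bound by AP-1, occurred on either strand in 1 of the 35, that of MMP7, against 4.2% of all windows. TATAAA occurred on either strand in 6, among them MMP7 and MMP10, against 10.7%. A match says only that these letters are in the window, and the counts say nothing on members without one, such as MMP1 and MMP3.

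The partners of ADAM10 and ADAM17 had lower fold changes than these proteases and transcripts richer in GC, so this contrast cannot be told apart from the trend on GC content. Of 9 genes whose products carry ADAM17 or ADAM10 to the cell surface, all of which passed the filter, 1 was higher and 1 lower by more than 2-fold at 50 ng/mL, and 1 and 0 were at 100 ng/mL. Among all genes the higher shares were 39.4% and 38.5% for these doses, and the lower ones 1.78% and 1.58%. The medians of the partners were -0.34 and -0.33, against 0.62 and 0.61 for all genes. Their median GC content was 59.0%, and relative to genes of similar GC content their median was 0.00. TSPAN17 had 66.4 FPKM with vehicle, 38.9 with 50 ng/mL and 42.8 with 100 ng/mL, FRMD8 had 41.8, 27.2 and 28.3, and RHBDF1 had 17.5, 13.9 and 13.9. TSPAN5, a tetraspanin partner of ADAM10, was higher, with 3.46, 8.58 and 8.27 FPKM, or 0.16 and 0.12 relative to genes of similar GC content. TSPAN33, another such partner, was lower at 50 ng/mL, with 7.60, 3.72 and 4.55 FPKM, or -1.66 and -1.36 relative to genes of its 50.9% GC.

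Of 10 genes whose products activate protease precursors, 5 passed the filter and 0 were past 2-fold at either dose, against 39.4% and 38.5% higher among all genes, with medians of -0.41 and -0.44 against 0.62 and 0.61, and a median of -0.16 relative to genes of similar GC content. PLAU (urokinase) had 115 FPKM with vehicle, 121 with 50 ng/mL and 124 with 100 ng/mL. FURIN, a convertase that cuts the precursors of membrane-type MMPs and ADAMs, had 113, 76.0 and 76.2 FPKM. PLAUR (the urokinase receptor) had 55.2, 41.6 and 40.7 FPKM, and PLAT (tissue plasminogen activator) had 25.4, 38.6 and 37.4 FPKM. PLG, the precursor of plasmin, had at most 0.01 FPKM. Of the 4 inhibitors outside the TIMP family, 3 were listed, and TFPI2 was the one that passed the filter, with 67.1, 88.5 and 89.7 FPKM, or -0.88 and -0.84 relative to genes of its 44.8% GC. RECK, a membrane-anchored inhibitor of MMPs, had 0.20, 0.63 and 0.44 FPKM, and A2M (alpha-2-macroglobulin) had 0.02, 0.03 and 0.

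Of 7 genes of procollagen processing, 5 were listed and 3 passed the filter, and 1 was higher by more than 2-fold at each dose, against the 39.4% and 38.5% of all genes. BMP1 (procollagen C-proteinase) had 20.7, 18.4 and 16.4 FPKM, PCOLCE, its enhancer, had 10.6, 9.62 and 9.50, and TLL1, a relative of BMP1, had 0.30, 1.19 and 1.20. TLL1 was the higher gene, at 0.47 and 0.49 relative to genes of its 45.5% GC.

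Of 27 substrates of shedding, 20 passed the filter and 7 were higher by more than 2-fold at each dose, near the shares of 39.4% and 38.5% over all genes, with medians of 0.73 and 0.68 against 0.62 and 0.61. Relative to genes of similar GC content the median of these substrates was 0.21. AXL, a receptor kinase, had 216 FPKM with vehicle, 366 with 50 ng/mL and 371 with 100 ng/mL, and lay at 1.05 and 1.06 relative to genes of its 59.4% GC. SDC4 (syndecan-4) had 131, 215 and 213 FPKM and SDC1 (syndecan-1) had 135, 99.6 and 101.5. KITLG (stem cell factor) had 0.44, 1.64 and 1.69 FPKM and VCAM1 had 0.25, 1.18 and 1, and both had transcripts under 40% GC and lay within 0.37 of genes of similar GC content.

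Of 22 matrix substrates, 19 were listed, 14 passed the filter and 7 were higher by more than 2-fold at each dose, against shares of 39.4% and 38.5% over all genes, with medians of 0.96 and 0.93 against 0.62 and 0.61. Their median GC content was 50.7%, and relative to genes of similar GC content their median was 0.21. FN1 (fibronectin) had 58.6 FPKM with vehicle, 125 with 50 ng/mL and 121 with 100 ng/mL, COL1A1 had 78.4, 108 and 104, and TNC (tenascin-C) had 38.3, 61.4 and 57.5. THBS1 (thrombospondin-1) had 13.5, 34.2 and 31.9 FPKM, and VCAN (versican), a substrate of ADAMTS1, had 0.63, 1.51 and 1.68. Relative to genes of similar GC content COL1A1 lay at 0.86 and 0.79, THBS1 at 0.67 and 0.59 and VCAN at -0.13 and 0.03. COL1A2, which pairs with COL1A1 in type I collagen, had 0.03, 0.10 and 0.14 FPKM.

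Of 13 genes of AP-1, ETS and RUNX factors, which are known to act on MMP and TIMP genes, 11 passed the filter, and 2 were higher and 0 lower by more than 2-fold at each dose, against 39.4% and 38.5% higher among all genes. Their medians of 0.81 and 0.64 were nonetheless above the 0.62 and 0.61 of all genes, and relative to genes of similar GC content their median was 0.27. FOSL1 had 446 FPKM with vehicle, 344 with 50 ng/mL and 345 with 100 ng/mL, JUN had 38.2, 67.1 and 65.0, and JUND had 52.4, 37.0 and 38.4. ETS1 and ETS2 were the higher genes, with 4.82, 13.2 and 12.5 FPKM for ETS1 and 6.43, 15.0 and 14.4 for ETS2. Relative to genes of similar GC content ETS1 lay at 0.09 and 0.02, ETS2 at 0.57 and 0.52 and JUN at 0.89 and 0.84.

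The positions of the members bear on how their reads could be assigned. MMP7, MMP20, MMP10, MMP1 and MMP3 lie within 1 cluster on chromosome 11, where MMP1 and MMP10 are 9290 bases apart, and of these 5 genes MMP1 and MMP3 passed the filter. ADAM9 and ADAM32 lie closest, 1728 bases apart on the same strand, and ADAM32 had at most 0.04 FPKM. ADAMTS1 and ADAMTS5 are 72512 bases apart on chromosome 21, and ADAMTS5 had at most 0.30 FPKM. MMP23A and MMP23B, a pseudogene and its near-identical parent on chromosome 1, had at most 0.36 FPKM and are uncertain, since reads could be split between them. Other listed genes overlap 27 members. Among those that passed the filter, ADAM17 (with IAH1), ADAMTS7 (with MORF4L1), MMP19 (with TMEM198B) and MMP24 (with MMP24OS) share their span with a gene on the other strand that reached 1 FPKM in a library, and whether strand was used in making the values is not given in the sources used here. IAH1 had 3.41 FPKM with vehicle, 3.01 with 50 ng/mL and 3.04 with 100 ng/mL, and so did not move with ADAM17. MMP24OS had 26.7, 17.3 and 17.0 FPKM, against 1, 0.86 and 0.72 for MMP24.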

How the data were processed

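The authors deposited FPKM values for 26108 genes in 3 libraries, after mapping with HISAT2; the submitters' processing notes name HISAT2 2.0, StringTie 1.3.0 and Bowtie 0.12.2 without their roles. The genome builds named there are hg19 and mm8, whereas the coordinates of the 56 members overlapped those of the same identifiers in GENCODE v29 (GRCh38). Filters and use of strand are not given in the sources used here. The study's methods describe log2 CPM (counts scaled to library size) and an absolute log2 fold change above 1; here log2(FPKM + 0.1) was compared where the mean reached 0.5 FPKM, with the same limit. Members and lists were chosen with earlier results of these data known. Values are given for members with a mean of at least 1 FPKM, for a fixed set of TIMPs and MMPs, for members past 2-fold, and per list of other genes for the 3 of highest mean and the 2 of largest absolute fold change; markers of cell types are given as sums, with the 3 of highest mean for stellate cells. COL1A2 and PLG were added after their values were seen. Transcript GC content and length were medians over the listed transcripts, found for 99.6% of the genes tested. Trends were locally weighted regressions with a span of 0.3 (statsmodels 0.14.6), checked on simulated data. Python 3.11.15, pandas 2.3.3, Biopython 1.88 and matplotlib 3.10.9 were used. The 7 alternatives were a pseudocount of 1, no filter, a mean of at least 1 FPKM, the median ratio to vehicle (genes from 1 FPKM upward) set to 0, rescaling to the same sum (TPM), and removal of the trend on GC content or on length.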

Additional observations from a re-analysis of the deposited data

How the results depend on the processing

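No paired analysis was possible because each condition had 1 library. Over the 10 counts and medians and the 7 alternatives, 70 values were compared. Of these, 43 stayed within 1.5 times for a count or within 0.24 for a median, and 27 moved further. Where no cause is stated, the cause was not tested. The limit of 0.24 is the standard deviation over genes of the log2 difference between the doses, divided by the square root of 2. The doses are different conditions with 1 library each, so it is a working limit and not a spread between replicates. The count of members apart between the doses was 0 under each alternative. The higher members, 8 at 50 ng/mL and 7 at 100 ng/mL, numbered 5 and 4 with a pseudocount of 1, which by its construction shrinks the folds of low genes, 2 and 2 with the GC trend removed, and 4 and 1 with the length trend removed. The lower members, 1 at 50 ng/mL and 0 at 100 ng/mL, numbered 8 and 7 with the length trend removed (ADAM11, ADAM15, MMP15, MMP17, MMP24, MMP25 and TIMP1 at both, MMP9 at 50 ng/mL only) and 2 and 1 with the median ratio to vehicle set to 0; at 50 ng/mL they numbered 0 with a pseudocount of 1, with rescaling to the same sum and with the GC trend removed, and at 100 ng/mL 1 without the filter (MMP11) and 1 with the GC trend removed (MMP3). The MMP median of -0.15 was 0.31 without the filter and -0.72 with the length trend removed. The TIMP median of 0.65 was -0.15 with the GC trend removed and -0.21 with the length trend removed. The ADAM median of 1.05 was 0.63 with a pseudocount of 1, 0.32 without the filter, 0.14 with the GC trend removed and 0.27 with the length trend removed. The ADAMTS median of 0.37 was 1.38 with a mean of at least 1 FPKM, where fewer genes are tested, and 0.033 with the length trend removed. The ADAMTSL median of -0.02 was 0.39 with the GC trend removed and -0.53 with the length trend removed. The scalings moved the median of all genes from 0.62 to 0.40 with the median ratio set to 0 and to 0.76 with rescaling to the same sum, and removing a trend moved it to 0.00 (GC) and 0.04 (length), so these values are relative to other genes. Of 27 members with a value, 23 moved with the GC trend removed, of which 10 changed sign within 2-fold, and 27 moved with the length trend removed. Removing the length trend moved the median of all genes by more than the limit of 0.24. The count of 27 was thus close to fixed in advance and says little on these members. The Spearman correlation of the mean log2 fold change with transcript length was 0.18 between all genes tested and 0.20 between the members. The depth of the libraries is unknown, so no limit can be given for members near 0.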
